A study of Mus musculus with 9 samples.

Results

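The 10 genes described here encode the TGF-beta ligands Tgfb1, Tgfb2 and Tgfb3, the latent TGF-beta binding proteins Ltbp1 to Ltbp4, and the receptors Tgfbr1, Tgfbr2 and Tgfbr3. They were chosen by symbol from the 43346 genes of the deposited table, as the core proteins that make, store and receive the TGF-beta signal, and each is listed there as 1 gene. Fibroblasts were sorted from the lungs of Col1a1-GFP mice as GFP+, CD45-, CD31- and EpCAM- cells, and their polyadenylated RNA was sequenced in bulk. The aged sham group holds 4 libraries from mice given saline, and the aged bleo group holds 5 libraries from mice given bleomycin, an agent that causes lung fibrosis, as 1 intratracheal dose. Lungs of both groups were taken on day 30, and the mice were 72 weeks old by the sample labels and 18 months old by the treatment protocol. All the mice carry the Col1a1-GFP transgene, on an FVB background by the study's methods, so the sorted cells are those in which a collagen I promoter drove GFP, and cells without that activity were not collected. The comparison asks how the transcriptome of aged fibroblasts differs between lungs with persistent fibrosis and uninjured lungs.

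TGF-beta is secreted as a latent complex, in which the growth factor is held by its own propeptide and, through it, by a latent TGF-beta binding protein that is fixed to fibrillin and other matrix fibres. Integrins and proteases release the active ligand, which binds the type II receptor Tgfbr2. That receptor then phosphorylates the type I receptor Tgfbr1, and SMAD2 and SMAD3 carry the signal to the nucleus. In lung fibroblasts the pathway is known for driving collagen synthesis and the myofibroblast state.

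The libraries held 49921946 to 68260600 counts on genes, and a count of 0 would allow up to 3 counts, or 0.0439 to 0.0601 CPM (counts scaled by TMM to a common library size), for counting error only. The fibroblast genes Col1a1, Col1a2 and Dcn were abundant in all 9 libraries, with a summed level of the 7 fibroblast markers of 18269 to 21235 CPM in aged sham and 33103 to 48297 CPM in aged bleo. Epcam lay at 0.485 to 0.798 CPM in aged sham and 0.409 to 1.20 CPM in aged bleo, and the endothelial gene Cdh5 at 0.753 to 2.26 and 1.08 to 2.17 CPM. The pan-leukocyte gene Ptprc, which encodes CD45, was detected at 42.3 to 169 CPM in aged sham and 30.6 to 183 CPM in aged bleo, although CD45+ cells were sorted out. No marker of the 10 cell type lists was at 0 in every library. On the first principal component of all tested genes, which held 61.4% of the variance, aged bleo 2 lay nearest to the aged sham libraries (5.18), and aged bleo 4 (88.7) and aged bleo 5 (72.4) lay farthest from them. The library names of the 4 aged sham libraries and of aged bleo 4 end in the number 4, those of aged bleo 1, 2 and 3 end in 5, and that of aged bleo 5 ends in 6. What this number stands for is not given in the sources used here, and only among the names that end in 4 are both treatments present.

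All 10 genes were tested, and 4 passed both thresholds, FDR under 0.10 and more than 1.5-fold change (edgeR's quasi-likelihood test). This share stands beside 23.8% of the 16877 genes tested. Tgfb1 and Ltbp2 were higher in aged bleo, which is 2 of 10 genes beside 12.3% of all genes, and Ltbp4 and Tgfbr3 were lower, which is 2 of 10 beside 11.5% of all genes. The same 4 genes were those whose groups did not overlap, while 16.1% of all genes had every aged bleo library above every aged sham library and 16.1% had every one below. Tgfb3 and Tgfbr2 had an FDR under 0.10 with a fold change below 1.5, and Tgfb2, Ltbp1, Ltbp3 and Tgfbr1 passed neither threshold. The FDR of Tgfb3 was 0.121 without aged sham 1 and 0.0137 without aged bleo 4. That of Tgfbr2 was 0.111 and 0.0163 in the same fits, so neither gene stayed under 0.10 in every fit. The median log2 fold change of the 10 genes was 0.16, where that of all genes was 0.01, and the median size of the change irrespective of direction was 0.42 against 0.29. In a bulk sample, a lower level from fewer cells of a type and one from less RNA per cell cannot be told apart, and the p-values measure the spread between these libraries.

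**Figure D1:**
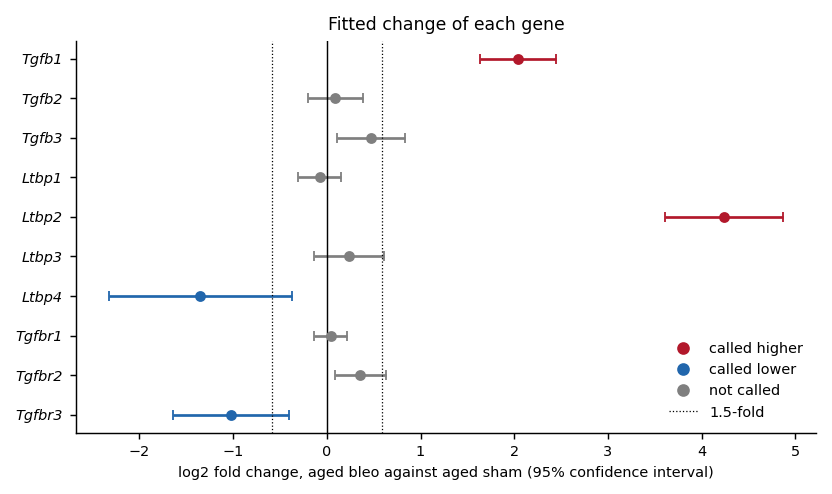
Fitted log2 fold change of each gene in aged bleo against aged sham, with its 95% confidence interval. Intervals of Tgfb1 and Ltbp2 lie above the upper dotted line of 1.5-fold, those of Ltbp4 and Tgfbr3 lie below 0 and cross the lower dotted line, and those of Tgfb2, Ltbp1, Ltbp3 and Tgfbr1 include 0.

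Among the ligands, Tgfb1, which encodes the isoform most studied in fibrosis, rose in aged bleo. Tgfb1 was at 26.1, 27.0, 27.6 and 25.1 CPM in aged sham 1 to 4, and at 104, 74.1, 112, 152 and 102 CPM in aged bleo 1 to 5. The aged sham libraries were nearly identical, all aged bleo libraries lay above them, and aged bleo 4 was the highest and aged bleo 2 the lowest of their group. The means were 26.5 ± 1.09 CPM (SD, n = 4) and 109 ± 28.1 CPM (SD, n = 5), and the fitted change was 4.11-fold (log2 fold change 2.04, SE 0.18, 95% confidence interval 1.63 to 2.45, FDR = 9.79e-05). The gene lies on chromosome 7 (GRCm38, chr7:25687002-25705077, plus strand, ENSMUSG00000002603).

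The bases that precede the transcription start of Tgfb1 are shown here because this ligand gene changed most, with the windows of Ltbp2 and Ltbp4 given below for comparison. RefSeq promoter windows (GRCm38.p6, 250 bases before to 50 bases after a start) were found for 8 of the 10 genes, and these 8 genes had 12 windows. Tgfb3 and Tgfbr3 had none. Each window was searched on both strands for 6 motifs. These were the GC box of SP1 and KLF factors (GGGCGG), the SMAD-binding element (CAGAC), the core of NFAT sites (GGAAA), the AP-1 motif (TGANTCA), the TEAD motif (GGAATG) and the TATA box (TATAAA). Capitals mark the GC box, SMAD and NFAT motifs on either strand, and the stretch ends at the last base before the gene's first exon, at chr7:25686752-25687001, plus strand.
Tgfb1: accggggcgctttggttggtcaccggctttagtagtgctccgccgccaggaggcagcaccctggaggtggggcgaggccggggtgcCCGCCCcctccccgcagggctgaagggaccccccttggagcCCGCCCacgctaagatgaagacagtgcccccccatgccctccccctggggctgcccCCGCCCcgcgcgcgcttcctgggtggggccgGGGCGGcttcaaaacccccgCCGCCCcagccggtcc
These 250 bases hold 5 GC boxes and no SMAD or NFAT motif, and 75.2% of them are G or C. The 5 matches do not overlap each other.

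Over all 32817 promoter windows, the GC box was found in 35.6%, and 6 of the 12 windows of the TGF-beta genes hold it. The SMAD motif was found in 49.6% of all windows and in 7 of the 12, the NFAT motif in 61.3% and in 6, and the TEAD motif in 14.7% and in none. AP-1 occurred in 7.81% of all windows and in 1 of the 12, that of Ltbp3, and the TATA box in 13.6% and in 1 of the 12, that of Tgfb2.

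Tgfb2 encodes the isoform that depends most on betaglycan for receptor binding. Its gene lies at chr1:186622792-186705989 on the minus strand (ENSMUSG00000039239). Tgfb2 was at 94.7, 62.1, 71.3 and 90.8 CPM in aged sham 1 to 4, and at 74.4, 88.7, 89.6, 79.6 and 91.5 CPM in aged bleo 1 to 5. The groups overlapped over most of their range, and aged sham 2 was the lowest library. The log2 fold change was 0.09 (SE 0.13, 95% confidence interval -0.21 to 0.38, FDR = 0.628), so a change of 1.5-fold in either direction lies outside the interval.

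Tgfb3 encodes the third isoform and was, per length, the most abundant ligand transcript of these cells. The gene is listed at chr12:86056744-86079041 on the minus strand (ENSMUSG00000021253). Tgfb3 was at 207, 255, 243 and 228 CPM in aged sham 1 to 4, and at 385, 354, 382, 234 and 261 CPM in aged bleo 1 to 5. Aged bleo 1, 2 and 3 lay above all aged sham libraries, aged bleo 4 lay within their range, and aged bleo 5 just above it, so the groups overlapped. The fitted difference was 1.39-fold (log2 fold change 0.47, SE 0.16, 95% confidence interval 0.10 to 0.84, FDR = 0.0495), under the 1.5-fold threshold. Against aged sham, the 3 libraries whose names end in 5 gave a log2 fold change of 0.67 (FDR = 0.00114) and the 1 library whose name ends in 4 gave 0.02, in fits that were added after the values were seen. The former passed both thresholds, in a fit that called 19.6% of all genes. No aged sham name ends in 5, so treatment and name number cannot be told apart in that fit, here and for the genes below. Its FDR values do not allow for the choice of libraries after the values were seen. The fit with aged bleo 4 alone called 36.6%, and since its spread comes only from aged sham, its values are given without an FDR.

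The FPKM values, which are scaled to gene length, let the ligands be set side by side. The summed level of the 3 ligands was 39.0 ± 2.00 FPKM (SD, n = 4) in aged sham and 65.6 ± 6.38 FPKM (SD, n = 5) in aged bleo, and the ranges of 36.7 to 41.2 and 57.4 to 72.3 FPKM did not overlap. Tgfb3 made up 69.8% to 78.0% of this sum in aged sham and 48.6% to 70.3% in aged bleo. The share of Tgfb1 was 10.6% to 11.6% in aged sham and 19.4% to 41.7% in aged bleo, and that of Tgfb2 went from a mean of 14.9% to 9.70%. Tgfb1 was thus below Tgfb2 in all 4 aged sham libraries, with 0.623 to 0.985 times its FPKM, and above it in all 5 aged bleo libraries, with 1.89 to 4.33 times its FPKM. Tgfb3 exceeded Tgfb1 in every library, by a mean of 6.66 times in aged sham and 2.42 times in aged bleo, and in aged bleo 4 by 1.17 times.

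**Figure D2:**
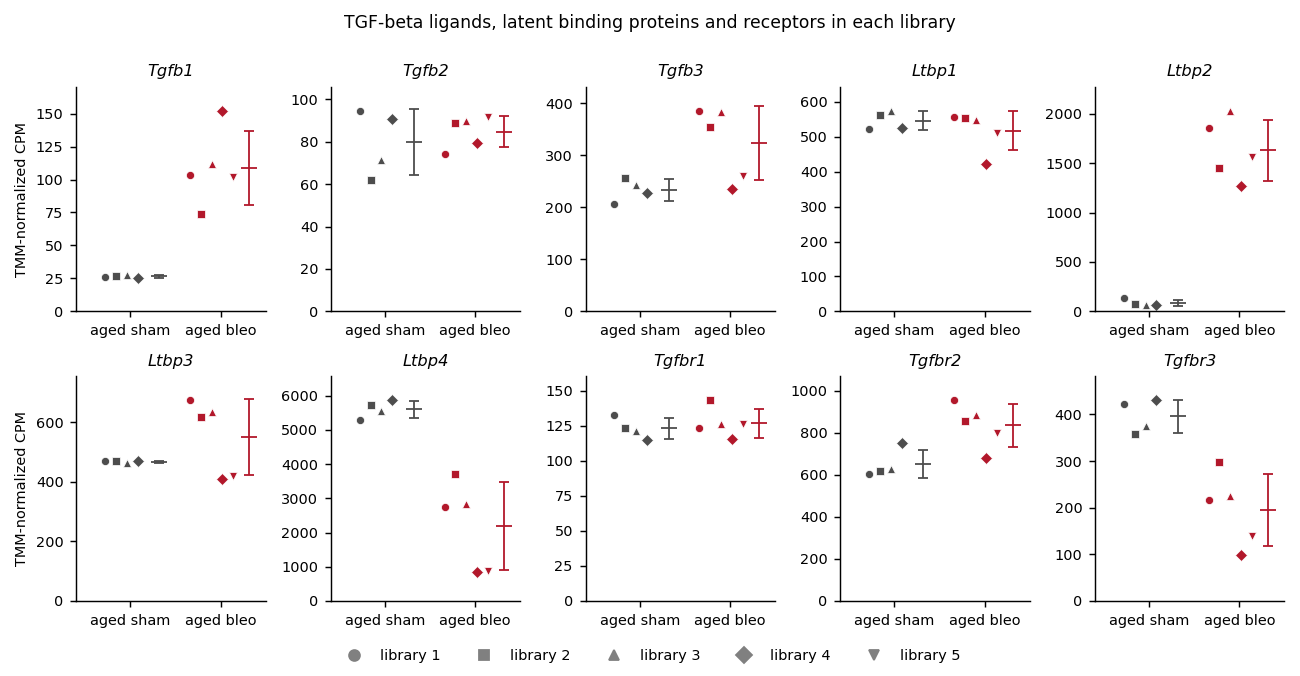
TMM-normalized CPM of each gene (vertical axes, starting at 0 and scaled per gene) in the 4 aged sham libraries (grey) and the 5 aged bleo libraries (red), with the library number as the marker shape and the mean ± SD at the right of each group. The groups are separate for Tgfb1, Ltbp2, Ltbp4 and Tgfbr3. Aged bleo 4 and 5 lie below the other aged bleo libraries for Tgfb3, Ltbp1, Ltbp3, Ltbp4, Tgfbr2 and Tgfbr3.

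The latent TGF-beta binding proteins moved in opposite directions. Ltbp2 rose more than any other of the 10 genes, Ltbp4 fell, and Ltbp1 and Ltbp3 did not pass the test. Ltbp1 and Ltbp3 bind the latent forms of each ligand, Ltbp4 binds latent TGF-beta 1 weakly and takes part in elastic fibre assembly, and Ltbp2 binds fibrillin and fibulin-5 but is not known to bind latent TGF-beta.

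Ltbp2 was at 136, 74.0, 68.9 and 67.6 CPM in aged sham 1 to 4, and at 1854, 1449, 2031, 1267 and 1562 CPM in aged bleo 1 to 5. Aged sham 1 stood above the other aged sham libraries, aged bleo 4 was the lowest of its group, and the groups were far apart. The means were 86.5 ± 32.9 CPM (SD, n = 4) and 1633 ± 308 CPM (SD, n = 5), an 18.9-fold difference (log2 fold change 4.24, SE 0.28, 95% confidence interval 3.61 to 4.87, FDR = 2.32e-05). By fitted increase Ltbp2 took rank 96 among the 16877 genes tested, and it lies at chr12:84783212-84876532 on the minus strand (ENSMUSG00000002020).

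The 5′ end of Ltbp2 overlaps an antisense gene. D030025P21Rik (chr12:84875769-84879755, plus strand) shares 764 exonic bases with Ltbp2 on the opposite strand, which is 9.34% of the exonic bases of Ltbp2. Its level was 3.01 to 8.48 CPM in aged sham and 69.5 to 138 CPM in aged bleo, with a log2 fold change of 4.40 (SE 0.35, FDR = 5.55e-05), and aged sham 1 was again the highest aged sham library. The library kit does not mark strand, so reads of the shared bases cannot be told apart between the genes.

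The stretch just before the most upstream exon of Ltbp2 is shown because this gene had the largest change, and that of Ltbp4 because it changed the other way. Both are read 5′ to 3′ along the minus strand with the same motifs in capitals, Ltbp2 at chr12:84876533-84876741 and Ltbp4 at chr7:27337693-27337862, and both end at the last base before the most upstream exon.
Ltbp2: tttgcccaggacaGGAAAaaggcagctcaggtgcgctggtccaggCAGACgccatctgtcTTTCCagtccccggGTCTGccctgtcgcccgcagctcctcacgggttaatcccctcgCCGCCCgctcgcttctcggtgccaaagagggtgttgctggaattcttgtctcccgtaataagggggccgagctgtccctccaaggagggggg
Ltbp4: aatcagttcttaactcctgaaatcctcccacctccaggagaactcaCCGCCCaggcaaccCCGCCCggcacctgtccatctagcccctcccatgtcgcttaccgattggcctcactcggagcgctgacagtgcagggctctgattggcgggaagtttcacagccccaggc
The 209 bases of Ltbp2 hold 2 SMAD motifs, 2 NFAT motifs and 1 GC box, and 63.2% of them are G or C. The 170 bases of Ltbp4 hold 2 GC boxes and neither of the other motifs in capitals, and 60.6% of them are G or C. The RefSeq windows reach further, and that of Ltbp2 holds 3 SMAD motifs, 3 NFAT motifs and 2 GC boxes. The windows at the other RefSeq starts of Ltbp4 (chr7:27333648 and chr7:27333663) hold 7 and 9 GC boxes, with 80.3% and 81.3% G or C. The stretch of Ltbp2 lies within an exon of the antisense gene named above.

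Ltbp4 was by far the most abundant of the 10 transcripts per length in aged sham. It was at 5283, 5736, 5541 and 5858 CPM in aged sham 1 to 4, and at 2759, 3703, 2835, 845 and 862 CPM in aged bleo 1 to 5. Every aged bleo library lay below every aged sham library, and aged bleo 4 and 5 lay far below the other 3. The means were 5604 ± 251 CPM (SD, n = 4) and 2201 ± 1285 CPM (SD, n = 5), a fitted level 2.55-fold lower in aged bleo (log2 fold change -1.35, SE 0.43, 95% confidence interval -2.32 to -0.37, FDR = 0.0381). The log2 fold change was -0.86 (FDR = 0.00196) with the 3 libraries whose names end in 5 and -2.72 with aged bleo 4 alone, in the same added fits as for Tgfb3. Its position is chr7:27305136-27337692, minus strand (ENSMUSG00000040488).

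Ltbp1 encodes the best studied of the binding proteins. It lies at chr17:75005568-75392512 on the plus strand (ENSMUSG00000001870). Ltbp1 was at 523, 563, 575 and 525 CPM in aged sham 1 to 4, and at 558, 554, 547, 421 and 511 CPM in aged bleo 1 to 5. Aged bleo 4 was the lowest library and the others overlapped. The log2 fold change of -0.08 (SE 0.10, 95% confidence interval -0.30 to 0.15, FDR = 0.587) did not pass the test. It was 0.0081 with the libraries whose names end in 5 and -0.37 with aged bleo 4 alone.

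Ltbp3 encodes a binding protein of the same kind as Ltbp1. Its level was at 471, 469, 462 and 470 CPM in aged sham 1 to 4, and at 674, 619, 635, 409 and 419 CPM in aged bleo 1 to 5. Aged bleo 1, 2 and 3 lay above the narrow aged sham range and aged bleo 4 and 5 below it, so the aged bleo libraries fell on both sides of aged sham. Over all libraries the log2 fold change was 0.24 (SE 0.16, 95% confidence interval -0.13 to 0.61, FDR = 0.293). The 3 libraries with names ending in 5 gave 0.45 (FDR = 0.00173) and aged bleo 4 alone gave -0.18, neither past the 1.5-fold threshold. Both fits were added after the values were seen, and the former leaves out aged bleo 4 and 5, the libraries below aged sham. Ltbp3 lies at chr19:5740904-5758532 on the plus strand (ENSMUSG00000024940).

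Per length, the makeup of the binding protein transcripts differed between the groups. Ltbp4 made up 83.9% to 85.9% of their summed FPKM in aged sham and 29.4% to 62.1% in aged bleo. The share of Ltbp2 was 0.783% to 1.70% in aged sham and 19.2% to 42.1% in aged bleo, and neither share overlapped between the groups. Ltbp3 went from a mean share of 8.85% to 16.0% and Ltbp1 from 5.12% to 7.77%. The FPKM of Ltbp4 was 49.3 to 109.7 times that of Ltbp2 in aged sham and 0.699 to 3.24 times in aged bleo, and in aged bleo 4 and 5 Ltbp2 was the higher of the pair. Ltbp2 was below Ltbp1 in aged sham, with 0.153 to 0.332 times its FPKM, and above it in aged bleo, with 3.35 to 4.75 times. The summed level of the 4 genes was 428 ± 14.7 FPKM (SD, n = 4) in aged sham and 297 ± 99.5 FPKM (SD, n = 5) in aged bleo.

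**Figure D3:**
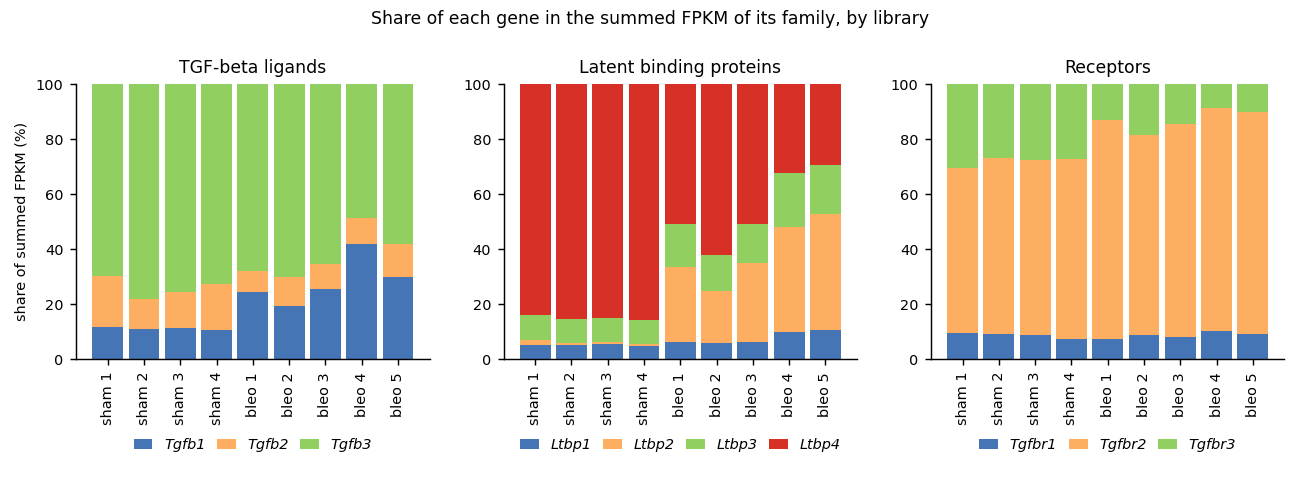
Share of each gene in the summed FPKM of its family (vertical axis, percent) in each of the 9 libraries, as stacked bars that add up to 100%. Tgfb1, Ltbp2 and Tgfbr2 take larger shares in all aged bleo libraries than in any aged sham library, and Ltbp4 and Tgfbr3 take smaller ones.

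Among the receptors, the kinase receptors and the coreceptor differed. Tgfbr3, which encodes betaglycan, the coreceptor that binds all TGF-beta isoforms and presents them to Tgfbr2, fell in aged bleo. Tgfbr3 was at 423, 357, 376 and 430 CPM in aged sham 1 to 4, and at 216, 297, 224, 99.3 and 139 CPM in aged bleo 1 to 5. The groups did not overlap, aged bleo 2 was nearest to aged sham, and aged bleo 4 and 5 were the lowest libraries. The means were 396 ± 35.4 CPM (SD, n = 4) and 195 ± 77.5 CPM (SD, n = 5), a fitted level 2.03-fold lower (log2 fold change -1.02, SE 0.28, 95% confidence interval -1.64 to -0.41, FDR = 0.0193). It was -0.70 (FDR = 0.00609) with the libraries whose names end in 5 and -1.99 with aged bleo 4 alone, which rests on 1 library. The gene lies at chr5:107106570-107289629 on the minus strand (ENSMUSG00000029287).

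Tgfbr2 encodes the type II receptor kinase that binds the ligand first. It was at 604, 619, 629 and 752 CPM in aged sham 1 to 4, and at 954, 855, 886, 680 and 800 CPM in aged bleo 1 to 5. Aged sham 4 stood above the other aged sham libraries and aged bleo 4 below the other aged bleo libraries, so that the groups overlapped only through these 2 libraries. The difference was 1.28-fold (log2 fold change 0.36, SE 0.12, 95% confidence interval 0.09 to 0.63, FDR = 0.0446), under the fold threshold. The log2 fold change was 0.46 (FDR = 0.0100) with the libraries whose names end in 5, also under that threshold, and 0.07 with aged bleo 4 alone. The gene is listed at chr9:116087698-116175363 on the minus strand (ENSMUSG00000032440).

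Tgfbr1 encodes the type I receptor kinase that phosphorylates SMAD2 and SMAD3. Tgfbr1 was at 133, 123, 121 and 115 CPM in aged sham 1 to 4, and at 123, 143, 126, 115 and 126 CPM in aged bleo 1 to 5. The groups overlapped over nearly their whole range. The log2 fold change was 0.04 (SE 0.08, 95% confidence interval -0.13 to 0.22, FDR = 0.705), and its interval is the narrowest of the 10 genes. It lies at chr4:47353222-47414931 on the plus strand (ENSMUSG00000007613).

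Summed over the 3 receptors, the level was 90.3 ± 5.61 FPKM (SD, n = 4) in aged sham and 96.0 ± 11.9 FPKM (SD, n = 5) in aged bleo. The share of Tgfbr2 was 59.8% to 65.4% in aged sham and 72.7% to 81.2% in aged bleo. That of Tgfbr3 was 26.9% to 30.6% in aged sham and 8.68% to 18.5% in aged bleo, while that of Tgfbr1 stayed at a mean of 8.80% and 8.77%. The FPKM of Tgfbr2 was a mean of 2.25 times that of Tgfbr3 in aged sham and 6.53 times in aged bleo, with the highest ratio of 9.36 in aged bleo 4.

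The order of the 10 transcripts per length changed mainly at the places of Ltbp2, Tgfb1 and Tgfbr3. In aged sham the order by mean FPKM was Ltbp4 (364), Tgfbr2 (57.0), Ltbp3 (37.8), Tgfb3 (28.9), Tgfbr3 (25.4), Ltbp1 (21.9), Tgfbr1 (7.90), Tgfb2 (5.76), Ltbp2 (4.43) and Tgfb1 (4.34). Of these neighbours, Tgfb3 and Tgfbr3, Tgfb2 and Ltbp2, and Ltbp2 and Tgfb1 overlapped in their ranges over the libraries. In aged bleo the order was Ltbp4 (145), Ltbp2 (85.6), Tgfbr2 (74.9), Ltbp3 (45.5), Tgfb3 (40.9), Ltbp1 (21.2), Tgfb1 (18.4), Tgfbr3 (12.7), Tgfbr1 (8.33) and Tgfb2 (6.29). Here the ranges of neighbours were separate between Tgfbr2 and Ltbp3, Tgfb3 and Ltbp1, and Tgfbr1 and Tgfb2, and the other neighbours overlapped. Ltbp2 thus went from the ninth place to the second, and Tgfb1 from the last place to the seventh.

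The genes whose profile over the 9 libraries was most like that of each ligand were found by the root mean square difference of mean-centred log2 CPM, among 15260 genes. Nearest to Tgfb1 were Snai1 (0.134), which encodes a transcription factor of the Snail family, Smco4 (0.152) and Gm27516 (0.154). Nearest to Tgfb3 were Axin2 (0.0646), a target and inhibitor of WNT signalling, Mical3 (0.0914) and Heyl (0.0938), a NOTCH target. Nearest to Tgfb2 were Gm11889 (0.0857), Prrc2c (0.0886) and the sulfate transporter gene Slc26a2 (0.0889). This distance includes the difference between the groups, so genes with a fold change like that of the ligand come out near. The log2 fold changes of the named genes were 1.83 to 2.19 for Tgfb1, 0.41 to 0.54 for Tgfb3 and 0.08 to 0.12 for Tgfb2. Shared regulation was not tested.

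Other genes of the pathway were read in the same fit from lists of 18 genes for the activation of latent TGF-beta, 15 for coreceptors and modulators, 14 for the SMAD machinery and 22 for the response to TGF-beta. Of the 18 activation genes, 5 were higher and 2 were lower in aged bleo, beside 12.3% and 11.5% of all genes, with a median log2 fold change of 0.36. The count of lower genes was 1 without aged sham 2, 3 or 4 or without aged bleo 2 or 5. Fbn2, which encodes fibrillin-2, a matrix fibril to which latent complexes are anchored, rose from 0.202 to 1.55 CPM in aged sham to 33.6 to 78.7 CPM in aged bleo (log2 fold change 6.57, SE 0.65, FDR = 1.76e-04, and 7.91 without aged sham 1). Thbs1, which encodes the activator thrombospondin-1, rose with a log2 fold change of 1.49 (SE 0.30, FDR = 0.00583), and had 0.86 with aged bleo 4 alone, which rests on 1 library. Mmp14, a membrane protease, rose with 1.31 (SE 0.13, FDR = 2.13e-04). Furin, the protease that cleaves the propeptide, rose with 1.13 (FDR = 7.30e-04) and Itgb1 with 0.85 (FDR = 0.00260). Itgb3 fell by 0.61 on the log2 scale (FDR = 0.00136). Itgb6 fell by 2.04 on the log2 scale (SE 0.70, FDR = 0.0476) from a level of only 0.307 to 1.19 CPM, with groups that overlapped. It was not called on the FPKM scales, and had -0.62 with aged bleo 4 alone.

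Of the 15 coreceptors and modulators, 4 were higher and 3 lower, beside 12.3% and 11.5% of all genes, with a median log2 fold change of 0.02. The count of lower genes was 1 without aged bleo 5, and 2 to 4 when any other library was left out, with 2 without aged sham 2, aged sham 3, aged bleo 3 or aged bleo 4. Fmod, which encodes fibromodulin, a small proteoglycan that binds TGF-beta, rose from 28.0 to 48.3 CPM in aged sham to 449 to 643 CPM in aged bleo (log2 fold change 3.78, SE 0.21, FDR = 1.23e-05). Nrp2, a neuropilin coreceptor, rose with a log2 fold change of 1.65 (SE 0.16, FDR = 1.68e-04). Dcn, which encodes the TGF-beta-binding proteoglycan decorin, fell by 1.54 on the log2 scale (SE 0.32, FDR = 0.00667). Acvrl1, which encodes the type I receptor ALK1, fell by 0.70 on the log2 scale (SE 0.24, FDR = 0.0476), and this value was -0.57 without aged bleo 4 and -0.58 without aged bleo 5, both under the fold threshold.

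Of the 14 genes of the SMAD machinery, 2 were higher and 0 lower by edgeR, with a median log2 fold change of -0.10, so the share called higher is near the 12.3% of all genes. Leaving out 1 library gave 2 or 3 higher and 0 lower, and DESeq2 and limma on log2 CPM also called 0 lower. Pmepa1, a feedback inhibitor of SMAD signalling, rose with a log2 fold change of 1.05 (SE 0.11, FDR = 2.13e-04), and Tgif2, a SMAD corepressor, with 0.77 (SE 0.16, FDR = 0.00660). The signal carriers Smad2 and Smad3 had log2 fold changes of -0.05 (FDR = 0.624) and -0.11 (FDR = 0.618), and the inhibitor Smad7 had 0.44 (FDR = 0.0180), under the fold threshold. Tgif1, a corepressor like Tgif2, had 0.58 (FDR = 0.0120), just under the fold threshold with groups that did not overlap. In the other direction, Ppm1a had -0.28 (FDR = 0.0253), Smurf2 -0.27 (FDR = 0.0410) and Smad4 -0.07 (FDR = 0.269). For these genes every aged bleo library lay below every aged sham library. Ski and Smad6, which encode inhibitors of SMAD signalling, had -0.41 (FDR = 0.0566) and -0.41 (FDR = 0.222).

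Of the 22 response genes, 12 were higher and 3 lower, beside 12.3% and 11.5% of all genes, with a median log2 fold change of 1.03. The count of lower genes was 5 without aged sham 1, aged bleo 1 or aged bleo 2, and 4 by DESeq2 and by limma on log2 CPM. The list shares Thbs1, Skil, Smad7 and Pmepa1 with the lists above, and a collagen I promoter also drives the GFP by which the cells were sorted. The largest increases were those of Il11 (log2 fold change 4.52, SE 0.40, FDR = 1.05e-04), Cthrc1 (3.84, SE 0.40, FDR = 2.24e-04), Timp1 (2.75, SE 0.33, FDR = 5.19e-04) and Col1a1 (2.33, SE 0.23, FDR = 1.76e-04). The called members that went the other way were Tgfbi (-1.47, FDR = 3.47e-04), Itga11 (-1.05, FDR = 0.0204) and Ccn2, which the table lists as Ctgf (-0.86, FDR = 0.00951). The myofibroblast genes Acta2 and Tagln had log2 fold changes of -0.58 (FDR = 0.0629) and -0.39 (FDR = 0.180), and Nox4, which encodes an oxidase induced by TGF-beta, had -0.54 (FDR = 0.0679) with groups that did not overlap, all under the fold threshold. All 4 lists were described by their counts and medians, with no test of a list against other genes.

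**Figure D4:**
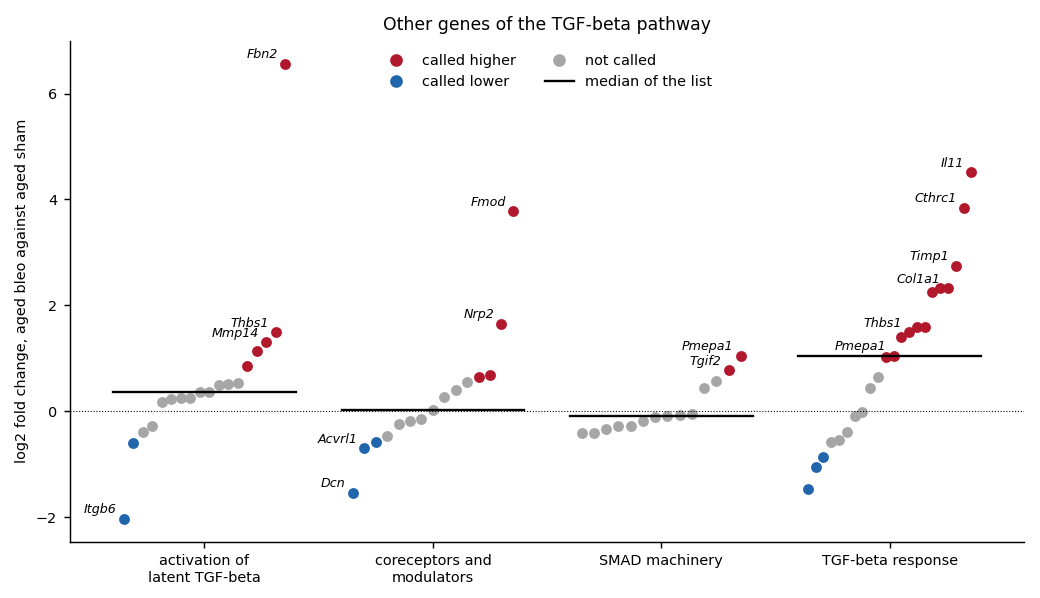
Log2 fold change in aged bleo against aged sham (vertical axis) of each gene in 4 lists of the TGF-beta pathway, sorted within a list, with the median of the list as a line. The response list has the highest median (1.03), and in the SMAD machinery Pmepa1 and Tgif2 are the called genes.

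Markers of other cells moved with the treatment in some lists. Macrophage markers summed to 141 to 264 CPM in aged sham and 445 to 1503 CPM in aged bleo, and 4 of 8 were called higher. Most of this sum was Lyz2, which went from 80.0 to 162 CPM to 373 to 1132 CPM. Csf1r, C1qa, C1qb and Marco were not called, and their groups overlapped. The macrophage sum was 445, 669, 530, 1503 and 861 CPM in aged bleo 1 to 5, where Tgfb1 was at 104, 74.1, 112, 152 and 102 CPM. Both were highest in aged bleo 4, while the sum was lowest in aged bleo 1 and Tgfb1 in aged bleo 2. Tgfb1 had a log2 fold change of 1.88 when aged bleo 4 was left out. The pan-leukocyte sums were 101 to 371 CPM in aged sham and 100 to 566 CPM in aged bleo, with 1 of 6 markers called higher, and the highest sums were those of aged sham 4 and aged bleo 4. Aged sham 4 had the highest pan-leukocyte, macrophage and neutrophil sums of aged sham (371, 264 and 937 CPM). Its Tgfb1 was at 25.1 CPM, the lowest of all libraries.

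Neutrophil markers summed to 152 to 937 CPM in aged sham and 83.3 to 841 CPM in aged bleo, with 0 of 6 tested markers called by edgeR, and 0 of the 6 had an unadjusted p under 0.05. Lymphocyte markers summed to 6.56 to 15.5 and 1.90 to 19.0 CPM, with 3 of 7 called lower, and platelet markers to 29.6 to 42.1 and 21.7 to 30.4 CPM, with 1 of 4 called lower. Endothelial markers summed to 164 to 203 CPM in aged sham and 27.4 to 72.1 CPM in aged bleo, with 1 of 7 called higher and 1 lower, and most of this sum was Tek, which went from 149 to 179 CPM to 9.51 to 55.7 CPM. Smooth muscle and pericyte markers summed to 1437 to 2796 CPM and 835 to 1818 CPM, with 1 of 7 called higher and 3 lower. The lowest sum was that of aged bleo 4, one of the libraries with the lowest Ltbp4 and Tgfbr3. The lowest sum of aged sham was that of aged sham 4, the library with the highest Ltbp4 (5858 CPM) and Tgfbr3 (430 CPM). Epithelial markers summed to 15.4 to 98.7 and 18.6 to 55.0 CPM, with 1 of 8 called in each direction, and mesothelial markers to 27.6 to 79.4 and 32.5 to 118 CPM, with 0 of 5 called by edgeR and 0 of the 5 under an unadjusted p of 0.05. Of the mesothelial markers DESeq2 called 1 and limma 0, and of the neutrophil markers both called 0. Of the fibroblast markers 3 of 7 were called higher and 2 lower, the latter being Dcn and Tcf21. The part of these cells in the changes of Tgfb1, Ltbp2, Ltbp4 and Tgfbr3 was not tested.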

How the data were processed

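RNA-Seq of sorted Col1a1-GFP+ lung fibroblasts was analysed in 4 aged sham and 5 aged bleo libraries, grouped by their sample labels. The authors deposited a table of 43346 genes with the read counts of each library as whole numbers without normalization. The same table holds FPKM values, which the authors scaled to gene length and to library totals above the count sums (2.27 to 2.42 times). The submitters' processing notes name STAR 2.5.2b, featureCounts, Subread, bcl2fastq and the builds mm10 and GRCm38. Positions of 8 of the 10 genes equal those in GENCODE M21, and Tgfb3 and Tgfbr2 differ. The library kit does not mark strand, and the strand setting of the counting is not given in the sources used here.

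The 16877 genes whose counts averaged 25 or more over the libraries were tested with TMM normalization and the quasi-likelihood test of edgeR 4.0.16 in R 4.3.3, with no covariate. FDR is the p-value adjusted by the Benjamini-Hochberg procedure over these genes, and genes were called at FDR under 0.10 with more than 1.5-fold change. The study's methods name a moderated test, which was run as an alternative (limma 3.58.1), as was DESeq2 1.42.0. Further alternatives changed the normalization, filter, FPKM pseudocount, thresholds and libraries, and the fits were tested on simulated data. Depth was 49921946 to 68260600 counts a library. No libraries were duplicates (chi-square per degree of freedom between libraries of a group of 31.7 to 462). Besides the 10 genes, the text names the up to 4 called genes of each pathway list with the largest change, the 3 nearest profiles of each ligand, and marker lists as whole lists. Furin, Itgb1, Itgb3, Smad2, Smad3, Smad7, Smad6, Ski, Tgif1, Acta2, Tagln, Nox4, Tgfbi, Itga11, Ccn2, Tek, Cdh5, Epcam, Ptprc and Tcf21 were named after their values were seen. The same holds for Smad4, Smurf2, Ppm1a, Lyz2, Csf1r, C1qa, C1qb and Marco. The 10 genes and all lists were chosen with earlier results of these data known.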

Additional observations from a re-analysis of the deposited data

Results flagged for a closer look

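Among 40 groups of libraries checked (CPM and family share of each gene in each group), 3 held a library whose gap to the nearest other one exceeded Dixon's critical value, where chance gives about 1 in 20 groups. Ltbp2 in aged sham 1 was at 136 CPM, with the nearest aged sham library at 74.0 CPM. The share of Ltbp2 in the summed FPKM of the binding proteins was also high in aged sham 1, at 1.70%, with the nearest at 0.869%. Both values rest on the same reads. Ltbp2 had a log2 fold change of 4.54 without aged sham 1, in place of 4.24. Tgfbr2 in aged sham 4 was at 752 CPM, with the nearest aged sham library at 629 CPM, and its log2 fold change was 0.43 without that library, still under the fold threshold.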

How the results depend on the processing

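Tgfb1, Ltbp2, Ltbp4 and Tgfbr3 kept their direction in all 22 alternative settings, and their call in those with more than 1 aged bleo library. One of these settings applies stricter thresholds to the main fit, so direction could not differ there. When 1 library was left out, the mean share of family FPKM changed by 13.7 to 19.2 percentage points for Tgfb1 and 27.3 to 33.0 for Ltbp2. The change was -44.1 to -35.9 for Ltbp4 and -16.5 to -14.1 for Tgfbr3. Leaving out 1 library cannot move a group mean by more than the spread between libraries, so these ranges do not test the shares. Leaving out 1 library gave log2 fold changes of 1.88 to 2.15 for Tgfb1, 4.13 to 4.54 for Ltbp2, -1.62 to -1.14 for Ltbp4 and -1.23 to -0.86 for Tgfbr3. Values near 0 changed sign, for Tgfb2 to -0.016 without aged sham 2 (range -0.016 to 0.18) and for Tgfbr1 to -0.0053 without aged bleo 2 (range -0.0053 to 0.079). The count of called genes was 4022, with 3525 to 4597 when 1 library was left out, 1785 on log2(FPKM + 1) and 2158 at FDR under 0.05 with more than 2-fold change. At these thresholds 3 coreceptors and modulators were called in place of 7, and of the SMAD machinery 1 in place of 2, as on log2(FPKM + 1). The stricter counts follow from the thresholds, and the cause of the lower count on log2(FPKM + 1) was not tested.

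Subsets by the last number of the library name were added after seeing the data. With the names ending in 4 (4 aged sham libraries and aged bleo 4, assumed to vary like the others), 6171 genes and 6 of the SMAD machinery were called, Ltbp3 was -0.18, Tgfbr1 -0.085 and Prrc2c -0.014, Ltbp1 was -0.37, and Thbs1 (0.86) and Itgb6 (-0.62) were not called. Against aged sham, the libraries with names ending in 5 gave 0.67 for Tgfb3, now called, and 0.0081 for Ltbp1. The cause was not tested.

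Replicate numbers do not pair the libraries, since the correlations of same-numbered libraries after subtracting group means were 0.09, 0.06, -0.13 and 0.33, and 1 of 4 aged sham libraries correlated best with its own number. With the replicate block, over 8 libraries, 3539 genes were called, and 3530 without it over the same 8, with the same 4 of the 10 genes in both fits.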
